A study of Homo sapiens with 6 samples.

Results

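The genes described here are 10 that mark the presomitic mesoderm and its segmentation clock: the transcription factors TBX6 and MSGN1, the oscillator genes HES7 and LFNG, the Notch ligands DLL1 and DLL3, and the boundary genes MESP1, MESP2, RIPPLY1 and RIPPLY2. They were taken by name from the 60107 Ensembl genes of the deposited count table, with no measured value used in the choice. RNA was measured by stranded, single-end mRNA sequencing of the human embryonic stem cell line H9, collected at the end of day 9 of a directed differentiation to nephron progenitor cells. The 3 libraries with glutamine came from cells in complete medium, and the 3 libraries without came from cells deprived of glutamine from the start of differentiation. All 6 libraries share the cell line, the protocol and the day. The labels do not say that the replicates were separate cultures, so p-values measure the spread between these samples, which may be technical. The column headings of the table name days 0 and 9 although every sample is labelled day 9, and each direction below rests on the heading that a sample's description gives.

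The presomitic mesoderm is the unsegmented tissue on each side of the embryonic tail from which somites form, and it lies beside the intermediate mesoderm that gives rise to the kidney. TBX6 and MSGN1 commit cells to it. A clock of HES7, a repressor that shuts off its own gene, and LFNG, an enzyme that adds sugar to Notch receptors, pulses in these cells, with DLL1 as activating ligand and DLL3 as a divergent ligand that acts inside the cell. As cells leave the clock, MESP2 and its neighbour MESP1 set the next boundary, and RIPPLY1 and RIPPLY2 shut down TBX6 activity there. DLL1, LFNG and DLL3 also serve Notch signalling elsewhere, DLL1 and LFNG in the forming nephron and DLL1 and DLL3 in neurogenic cells. In bulk RNA, fewer cells of a type and less RNA per cell cannot be told apart.

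Start-site sequences from RefSeq (GRCh38.p14) were held for 7 of the 10 genes, in 9 windows. The 250 bases before the start are shown for the 4 genes whose window holds the letters TNACACC, the core of the half-site that T-box factors such as TBX6 bind. The capitals mark each match, and both strands were searched. The windows are chr2:17816210-17816459 (plus strand) for MSGN1, chr15:89776082-89776331 (plus, inside the longer GENCODE 29 gene) for MESP2, chrX:106903342-106903591 (minus) for RIPPLY1 and chr6:83853110-83853359 (plus) for RIPPLY2.
MSGN1: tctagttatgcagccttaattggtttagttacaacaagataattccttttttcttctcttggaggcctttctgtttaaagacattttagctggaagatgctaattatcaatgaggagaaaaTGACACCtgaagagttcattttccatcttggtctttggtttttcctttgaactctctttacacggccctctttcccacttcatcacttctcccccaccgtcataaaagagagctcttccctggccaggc
MESP2: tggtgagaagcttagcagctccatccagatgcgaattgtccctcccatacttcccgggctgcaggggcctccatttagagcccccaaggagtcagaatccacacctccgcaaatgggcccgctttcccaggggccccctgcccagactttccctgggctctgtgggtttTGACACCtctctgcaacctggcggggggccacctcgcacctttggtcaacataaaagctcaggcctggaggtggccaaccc
RIPPLY1: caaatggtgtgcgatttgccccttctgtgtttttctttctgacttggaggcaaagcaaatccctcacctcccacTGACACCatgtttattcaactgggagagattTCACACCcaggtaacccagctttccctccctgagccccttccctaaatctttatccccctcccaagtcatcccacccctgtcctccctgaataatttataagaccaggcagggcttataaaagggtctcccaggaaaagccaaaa
RIPPLY2: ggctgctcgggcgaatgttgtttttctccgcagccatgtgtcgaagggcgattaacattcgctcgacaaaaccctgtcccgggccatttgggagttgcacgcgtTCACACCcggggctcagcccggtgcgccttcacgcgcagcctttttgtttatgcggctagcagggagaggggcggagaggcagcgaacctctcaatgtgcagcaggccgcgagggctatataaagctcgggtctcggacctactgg
The match lay 129 bases before the start in MSGN1, 81 in MESP2 and 146 in RIPPLY2, and RIPPLY1 held a pair, at 176 and 145. Over all 35116 windows of this length, 7.7% held the motif. The windows of TBX6, HES7 and LFNG and a downstream window of RIPPLY2 did not hold these letters. The motif was chosen with the sequences in view, and a match is a description of letters, not a binding site. These 4 genes did not share a direction: RIPPLY1 had a positive fold change without glutamine and the other 3 had negative ones.

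The libraries held 78220507 to 84746566 counts. Replicate 1 with glutamine stood apart from replicates 2 and 3 of its group, so the fold changes of the segmentation genes tested and the counts of calls in the main lists are given with and without it. That library was singled out on these same data. Adjusted p-values and calls without it are therefore descriptions and not valid tests. On log2(CPM + 0.1), it lay nearer the mean of the libraries without glutamine than that of replicates 2 and 3 for 62% of the 22613 genes tested. Among the 9 segmentation genes tested this held for 5: MSGN1, HES7, DLL1, DLL3 and MESP2. The nephron progenitor label was checked on its markers: WT1 was between 225 and 390 CPM (counts brought to a common library total with TMM scaling) over the 6 libraries. Where glutamine was supplied, SIX2 was at 6.57, 34.8 and 27.8 CPM in replicate order. Where it was withheld, SIX2 was at 9.70, 7.80 and 7.27 CPM. HOXD11, a marker of the metanephric lineage, had 44 counts in replicate 1 with glutamine but 0 and 1 in replicates 2 and 3, against 277 to 475 without glutamine. Of 5 pluripotency markers, NANOG, TDGF1 and DNMT3L did not exceed 2 counts and POU5F1 had 3 to 13, while ZFP42 was between 7.18 and 11.8 CPM in all libraries. TBXT, the tail bud factor upstream of TBX6, had 2 to 54 counts.

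The comparison asked which transcripts differ when glutamine is withheld. RIPPLY1, DLL1, MESP1 and LFNG had positive fold changes without glutamine, and MSGN1, HES7, MESP2, DLL3 and TBX6 had negative ones. Of the 9 genes kept by the filter on low counts, 0 had an adjusted p under 0.05 by edgeR's quasi-likelihood test, against 0.00442% of all 22613 genes tested. At an unadjusted p under 0.05, 4 were higher and 3 lower, beside 14.7% of all genes higher, 15% lower and 29.7% in either direction. The shares of all genes in this paragraph also apply to the counts of the lists below. The groups did not overlap in scaled CPM for 4 of the 9, 2 higher and 2 lower, beside 34.2% of all genes. For DLL1, among the higher, this depended on the scaling. The median log2 fold change of the 9 was -0.31, with 0.001 over all genes. DESeq2 called 2 of the 9, MSGN1 at an adjusted p of 0.0186 and RIPPLY1 at 1.99e-06, where it called 14% of all genes, and limma-voom called 0. Once replicate 1 with glutamine was left out, 7 of the 9 passed in edgeR, 3 higher and 4 lower, where 41.3% of all genes passed, 22.3% higher and 19% lower.

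**Figure D1:**
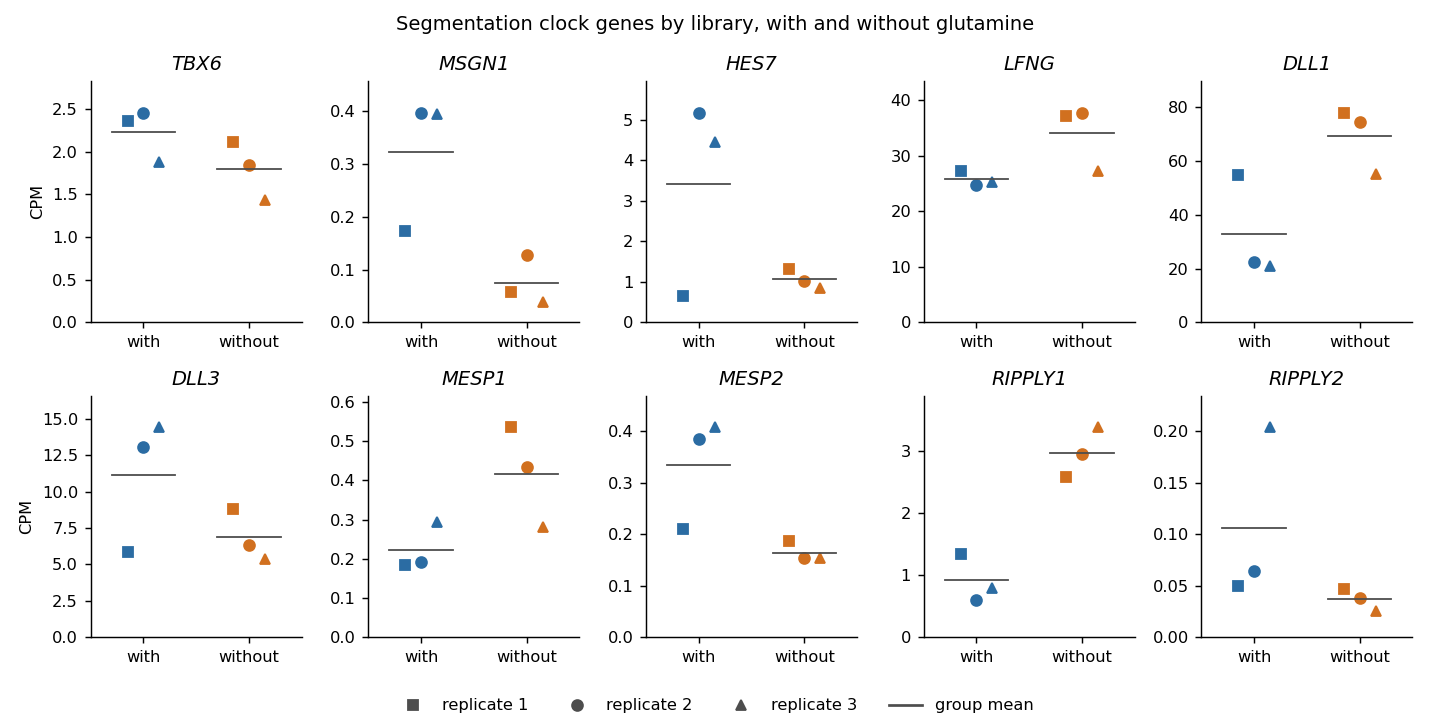
Expression of each of the 10 genes in CPM (vertical axis, linear, from 0) in the 3 libraries with and the 3 without glutamine, each point a library and each line a group mean. For DLL1, DLL3 and HES7, replicate 1 with glutamine (square) lies at or next to the libraries without glutamine and away from replicates 2 and 3 of its own group.

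TBX6 (ENSG00000149922, chr16:30085793-30091887, minus strand, GENCODE 29 on GRCh38), the T-box factor that specifies paraxial mesoderm, was at 2.35, 2.46 and 1.88 CPM with glutamine, in the order of replicates 1, 2 and 3 used throughout, and at 2.12, 1.84 and 1.44 CPM in the group without. The groups overlapped. On the log2 scale, as all fold changes below, TBX6 differed by -0.31 (SE 0.20, edgeR adjusted p 0.323), and by -0.26 (SE 0.20, edgeR adjusted p 0.318) without replicate 1 with glutamine. It was called in neither fit, and of the 10 genes it had the smallest difference among those tested.

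MSGN1 (ENSG00000151379, chr2:17816496-17817101, plus strand), a bHLH factor that drives cells out of the progenitor state into presomitic mesoderm, had 14, 31 and 31 counts with glutamine and 5, 10 and 3 without. These are 0.173, 0.397 and 0.395 CPM against 0.0581, 0.128 and 0.0382 CPM. Every library with glutamine was above every library without, and replicate 1 was the lowest of its group. MSGN1 had the most negative log2 fold change of the 9, -2.09 (SE 0.51, edgeR adjusted p 0.0746). With replicate 1 left out it was -2.39 (SE 0.39, edgeR adjusted p 0.00106). MSGN1 passed the filter through the libraries with glutamine, where it is high.

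HES7 (ENSG00000179111, chr17:8120590-8124092, minus strand) is the core repressor of the clock. It was at 0.641, 5.19 and 4.47 CPM with glutamine and at 1.33, 1.02 and 0.853 CPM without. Replicates 2 and 3 with glutamine were the highest of the 6 libraries and replicate 1 was the lowest, below all 3 libraries without glutamine. The log2 fold change of -1.67 (SE 0.67) had an edgeR adjusted p of 0.151. When that library was left out it was -2.17 (SE 0.18, edgeR adjusted p 1.35e-05), a fold of 4.48.

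LFNG (ENSG00000106003, chr7:2512529-2529177, plus strand), the glycosyltransferase that tunes Notch receptors, was at 27.4, 24.8 and 25.3 CPM with glutamine and at 37.2, 37.8 and 27.3 CPM without. The groups met at replicate 1 with and replicate 3 without glutamine, and otherwise lay apart. LFNG was 1.32-fold higher without glutamine, or 0.40 on the log2 scale (SE 0.13, edgeR adjusted p 0.112). This became 0.45 (SE 0.13, edgeR adjusted p 0.0209) in the fit of 5 libraries that leaves out replicate 1 with glutamine. LFNG and HES7, which pulse together in the clock, thus had fold changes of opposite sign in both fits.

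DLL1 (ENSG00000198719, chr6:170282206-170306565, minus strand), the activating ligand, had the highest mean level of the 10 in both groups, though with glutamine this rests on replicate 1, since LFNG was above it in replicates 2 and 3. It was at 54.7, 22.5 and 21.1 CPM with glutamine and at 78.1, 74.6 and 55.2 CPM without. Replicates 2 and 3 with glutamine were well below the other 4 libraries, and replicate 1 lay just under the lowest library without. That last order depended on the TMM scaling. In raw counts replicate 1 with glutamine had 4437 and replicate 3 without had 4337, although the latter library had the larger total, 80149747 against 78564463. DLL1 had a log2 fold change of 1.08 (its SE 0.37, edgeR adjusted p 0.116), and 1.67 (SE 0.14, edgeR adjusted p 1.62e-05) without replicate 1 with glutamine.

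DLL3 (ENSG00000090932, chr19:39498895-39508481, plus strand), the divergent ligand, had the opposite sign to DLL1. It was at 5.85, 13.1 and 14.4 CPM with glutamine and at 8.84, 6.32 and 5.40 CPM without. Replicates 2 and 3 with glutamine were the highest, and replicate 1 lay among the libraries without. For DLL3 this difference was -0.69 on the log2 scale (SE 0.34, edgeR adjusted p 0.219), and -1.0 (SE 0.17, edgeR adjusted p 0.00138) without replicate 1 with glutamine.

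MESP1 and MESP2, neighbouring bHLH genes on chromosome 15, were both near the lower limit of these libraries. MESP1 (ENSG00000166823, chr15:89748661-89751310, minus strand), known also from early cardiac mesoderm, had 15, 15 and 23 counts with glutamine and 46, 34 and 22 without. The groups overlapped through replicate 3 of each. MESP1 differed by 0.91 on the log2 scale (SE 0.33, edgeR adjusted p 0.132), and 0.79 (SE 0.36, edgeR adjusted p 0.110) without replicate 1 with glutamine, so it was called in neither.

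MESP2 (ENSG00000188095, chr15:89760591-89778754, plus strand), which places the somite boundary, had 17, 30 and 32 counts with glutamine and 16, 12 and 12 without. In CPM the groups did not overlap, with replicate 1 at 0.210 and the libraries without at 0.153 to 0.186. The difference was -1.01 on the log2 scale (SE 0.33, edgeR adjusted p 0.108). It was -1.25 (SE 0.28, edgeR adjusted p 0.00628) with replicate 1 left out.

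RIPPLY1 (ENSG00000147223, chrX:106900063-106903335, minus strand), a corepressor that ends TBX6 activity at the boundary, had the largest positive fold change of the 9. It was at 1.34, 0.602 and 0.802 CPM with glutamine and at 2.58, 2.96 and 3.39 CPM without. The groups did not overlap, and replicate 1 with glutamine was the highest of its group. RIPPLY1 was 3.23-fold higher without glutamine, 1.69 on the log2 scale (SE 0.28, edgeR adjusted p 0.0679). With replicate 1 left out the value was 2.08 (SE 0.21, edgeR adjusted p 5.09e-05). Its exons share 341 bases with CLDN2, a claudin gene on the opposite strand, so reads there are uncertain because the strand setting of the counting is not given in the sources used here. CLDN2 itself had 6 to 34 counts and differed by -1.17 on the log2 scale (SE 0.59, edgeR adjusted p 0.227), the other sign.

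RIPPLY2 (ENSG00000203877, chr6:83853266-83857515, plus strand), a paralog with the same role, was removed by the filter. It had 4, 5 and 16 counts with glutamine and 4, 3 and 2 without. Replicate 3 with glutamine alone was above 5 counts. With no filter it differed by -1.46 on the log2 scale (SE 0.68, edgeR adjusted p 0.284), which was not called.

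**Figure D2:**
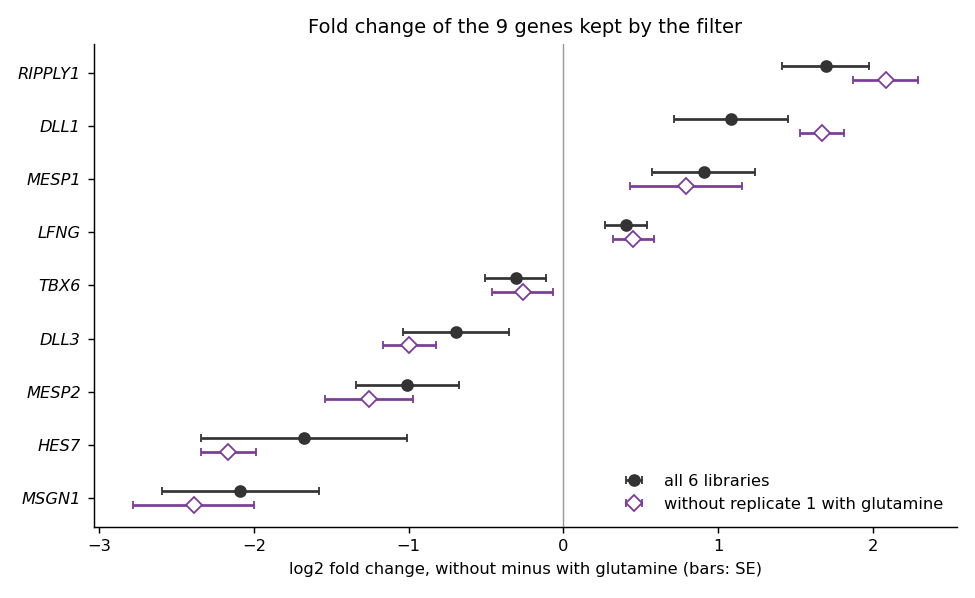
Log2 fold change, without minus with glutamine (horizontal axis), of the 9 genes kept by the filter, with all 6 libraries (filled circles) and without replicate 1 with glutamine (open diamonds), bars giving the SE. Signs are the same in both fits, and the SE of HES7 is 0.67 with all libraries and 0.18 without that replicate.

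Divided by exon length, as CPM per kb of the exons in GENCODE 29, the 10 genes could be ranked against each other. The length counted every base in any annotated exon, 606 for MSGN1 and 4172 for RIPPLY2. The order and the gaps between neighbours, in both groups, thus depend on that annotation as well as on the RNA. With glutamine DLL1 led at 10.2 ± 5.89, followed by LFNG at 7.55 ± 0.400, DLL3 at 4.24 ± 1.76 and HES7 at 1.84 ± 1.31 CPM per kb (SD, n = 3). The lead of DLL1 rested on replicate 1, at 16.95 CPM per kb. In replicates 2 and 3 LFNG, at 7.25 and 7.40, was above DLL1, at 6.99 and 6.53 CPM per kb. Below these lay RIPPLY1 at 0.769, TBX6 at 0.711, MSGN1 at 0.530, MESP2 at 0.187, MESP1 at 0.0942 and RIPPLY2 at 0.0253 CPM per kb. RIPPLY1 also owed its place to replicate 1, at 1.13 CPM per kb against 0.506 and 0.674 in replicates 2 and 3. Its mean over replicates 2 and 3 was below the means of TBX6 and MSGN1 over the same replicates. Among neighbours in this order, the ranges of the 3 libraries were apart only between LFNG and DLL3, between MSGN1 and MESP2, and between MESP1 and RIPPLY2.

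Without glutamine DLL1 was at 21.5 ± 3.83, LFNG at 9.98 ± 1.72, DLL3 at 2.62 ± 0.680 and RIPPLY1 at 2.501 ± 0.339 CPM per kb (SD, n = 3). TBX6 at 0.573 and HES7 at 0.571 CPM per kb came next, then MESP1 at 0.176, MSGN1 at 0.123, MESP2 at 0.0920 and RIPPLY2 at 0.00881 CPM per kb. Here the ranges overlapped between DLL3 and RIPPLY1, TBX6 and HES7, MESP1 and MSGN1, and MSGN1 and MESP2, and were apart between the other neighbours. The ligand DLL1 and the enzyme LFNG were therefore the abundant transcripts of the set in both groups, whereas the transcription factors that define presomitic mesoderm stayed under 1 CPM per kb in every library.

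**Figure D3:**
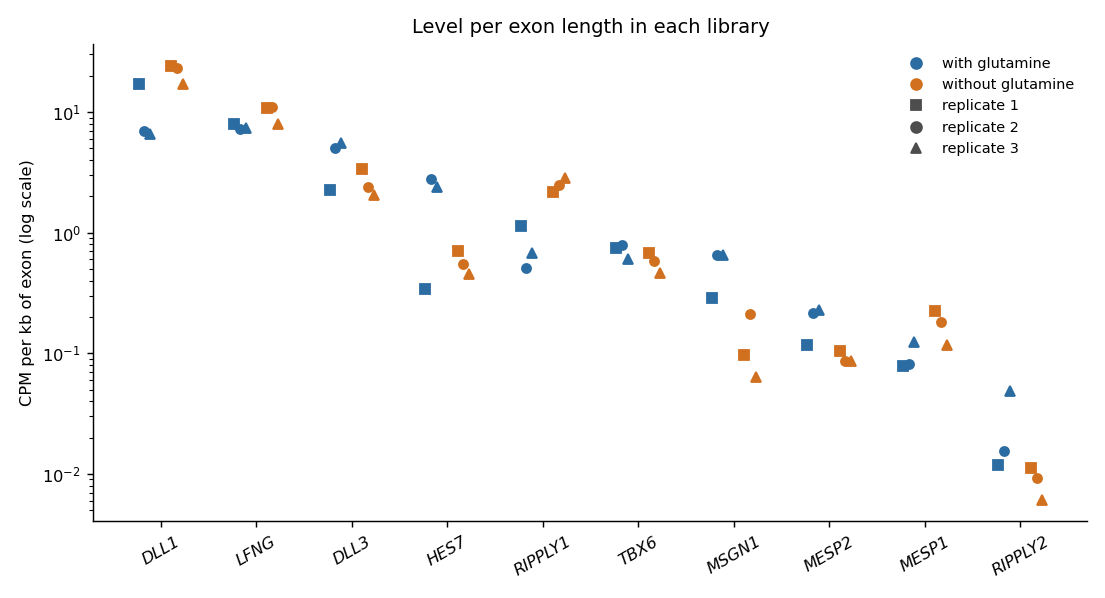
Level of each gene in CPM per kb of exon (vertical axis, log scale) in each library, ordered by the mean with glutamine. DLL1 and LFNG lie above 6 CPM per kb in all 6 libraries, and TBX6, MSGN1, MESP1, MESP2 and RIPPLY2 lie below 1 in all 6.

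Ratios of counts within a library do not depend on the scaling, and 4 were computed after the values had been seen. They are given as descriptions. DLL1 had 9.34, 1.73 and 1.46 times the counts of DLL3 with glutamine and 8.84, 11.8 and 10.2 times without. Replicate 1 with glutamine thus lay inside the range of the libraries without. MESP1 had 0.882, 0.500 and 0.719 times the counts of MESP2 with glutamine and 2.88, 2.83 and 1.83 times without. In this pair replicate 1 stayed with its own group, and MESP2 had more counts than MESP1 in every library with glutamine and fewer in every library without. RIPPLY1 had 27.2, 9.40 and 3.94 times the counts of RIPPLY2 with glutamine and 55.5, 77.3 and 133 times without, on RIPPLY2 counts of 2 to 16.

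HES7 was also set against HES1, a related repressor that Notch induces in many tissues. HES7 had 0.0128, 0.269 and 0.242 times the counts of HES1 with glutamine and 0.0203, 0.0159 and 0.0145 times without. Replicates 2 and 3 with glutamine were above 0.2 and the other 4 libraries were below 0.03.

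**Figure D4:**
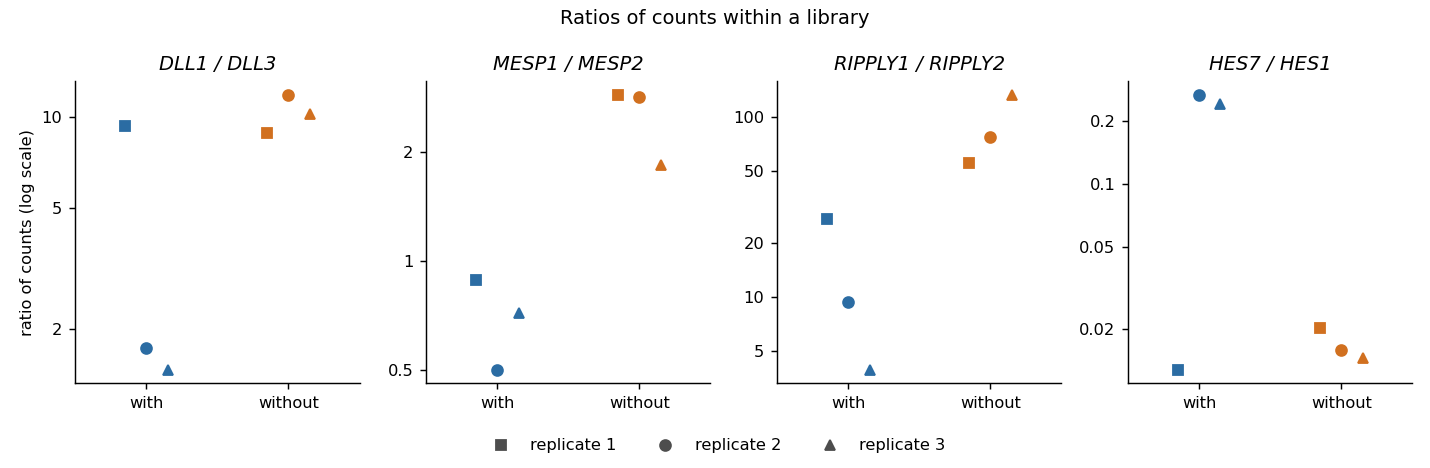
Ratio of counts within each library (vertical axis, log scale) for DLL1 to DLL3, MESP1 to MESP2, RIPPLY1 to RIPPLY2 and HES7 to HES1, each point a library. Replicate 1 with glutamine (square) sits with the libraries without glutamine for DLL1 to DLL3 and for HES7 to HES1, and below all of them for MESP1 to MESP2 and RIPPLY1 to RIPPLY2.

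The rest of the Notch pathway held 22 genes of receptors, other ligands, modifiers and proteases, all kept, of which 0 were called by edgeR with all libraries and 4 were higher and 3 lower at an unadjusted p under 0.05. Their median log2 fold change was 0.0006. JAG1, the ligand of the forming nephron, had the highest, at 650, 118 and 98.8 CPM with glutamine and 903, 854 and 721 CPM without (log2 fold change 1.51, SE 0.69, edgeR adjusted p 0.189). Without replicate 1 with glutamine the JAG1 value was 2.93 (edgeR adjusted p 2.21e-07). MIB1, the ubiquitin ligase that activates ligands, was the lowest of those above 1 CPM, at -0.28 (SE 0.08, edgeR adjusted p 0.0917). RBPJ, the DNA-binding partner of Notch, was at -0.02 (SE 0.07). DESeq2 called 3 of the 22 higher and 0 lower. Leaving out replicate 1 with glutamine, edgeR called 6 higher and 3 lower.

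Genes listed here as Notch targets leaned the other way from HES7. They were HES1, HES4, HES5, HES6, HEY1, HEY2, HEYL, NRARP and DTX1. Whether Notch induces each of them in these cells was not tested. Of these 9 genes, 8 had positive fold changes, and 0 were called by edgeR with all libraries. At an unadjusted p under 0.05, 4 were higher, HES6 among them, and 0 lower. The median was 0.99, and 1.59 without replicate 1 with glutamine. HES4 was the highest, at 13.3, 2.69 and 2.72 CPM with glutamine and 42.5, 27.3 and 17.2 CPM without (log2 fold change 2.22, SE 0.66, edgeR adjusted p 0.0932), and its value was 3.43 (edgeR adjusted p 6.62e-05) without replicate 1. HES1 had 50.2, 19.3 and 18.5 CPM with glutamine against 65.2, 64.1 and 58.8 CPM without, so that replicate 1 lay between. HEY2 was the lowest, at -0.07 (SE 0.20). DESeq2 called 3 of the 9 higher and gave no adjusted p for HES5. With replicate 1 left out, edgeR called 8 of the 9 higher, where it called 22.3% of all genes higher.

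Signals of the posterior embryo that keep the clock running were mixed. Of 19 WNT and FGF ligands and responsive genes, 0 were called by edgeR with all libraries, and at an unadjusted p under 0.05 there were 4 higher and 4 lower, with a median of 0.24. HAS2, a hyaluronan synthase, had the highest log2 fold change at 1.66 (SE 0.34, edgeR adjusted p 0.0694), and 2.22 (edgeR adjusted p 1.01e-07) without replicate 1 with glutamine. RSPO3, a WNT amplifier of the presomitic mesoderm, had the lowest, at 26.9, 59.0 and 62.6 CPM with glutamine and 16.2, 15.4 and 17.5 CPM without (-1.60, SE 0.30, edgeR adjusted p 0.0679), and was at -1.89 (edgeR adjusted p 2.47e-07) in the fit of 5 libraries. DESeq2 called 4 higher and 3 lower. Leaving out replicate 1 with glutamine, 7 were called higher and 6 lower by edgeR.

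Tail bud genes, which precede presomitic mesoderm, had negative fold changes in all 7 that were kept of 9, with a median of -0.79, or -1.13 without replicate 1 with glutamine. By edgeR with all libraries 0 were called, and 2 were lower at an unadjusted p under 0.05. CDX1 was the lowest, at 1.16, 9.85 and 9.62 CPM with glutamine and 1.84, 1.66 and 1.43 CPM without (-2.06, SE 0.69, edgeR adjusted p 0.114), and -2.56 (edgeR adjusted p 5.55e-07) without replicate 1. CDX4 was the nearest to 0, at -0.22 (SE 0.28). TBXT had 0.0246, 0.512 and 0.687 CPM with glutamine against 0.0930, 0.115 and 0.166 CPM without, so that, as with HES7, replicate 1 with glutamine was the lowest of the 6. DESeq2 called 1 of the 7 lower, and edgeR without that replicate called 6 lower.

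Somite genes, which follow the clock, had a median of -0.20 over 14 kept of 16, or -0.37 without replicate 1 with glutamine. By edgeR with all libraries 0 were called, and 1 was higher and 4 lower at an unadjusted p under 0.05. PAX7, of the dermomyotome, had the lowest log2 fold change, at 0.887, 10.2 and 10.0 CPM with glutamine and 0.732, 0.970 and 0.547 CPM without (-3.23, SE 0.85, edgeR adjusted p 0.0806), and was at -3.75 (edgeR adjusted p 3.19e-07) without that library. UNCX, of the posterior somite, had the highest with all libraries, at 0.72 (SE 0.25, edgeR adjusted p 0.122). Without replicate 1 with glutamine UNCX was at 0.64 (edgeR adjusted p 0.0581) and was not called. DESeq2 called 1 higher and 4 lower. In the edgeR fit that left out replicate 1 with glutamine, 3 were called higher and 8 lower.

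**Figure D5:**
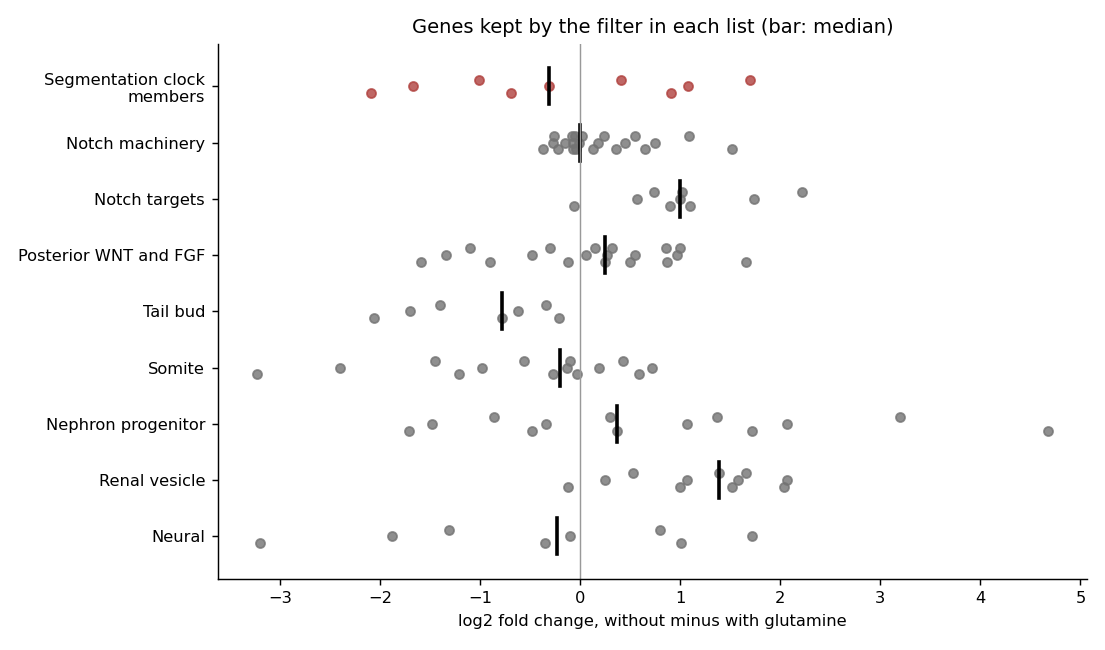
Log2 fold change, without minus with glutamine (horizontal axis), of the kept genes of each list with all 6 libraries, each point a gene and each bar the median. The 9 segmentation genes spread from -2.09 to 1.69, while all 7 tail bud genes lie below 0 and 10 of 11 renal vesicle genes lie above it.

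Markers of other cells that use DLL1, LFNG or DLL3 also varied between the libraries. The 11 renal vesicle genes, of the first epithelial stage of the nephron, summed to 519 to 2028 CPM with glutamine, where replicate 1 was the highest. Without glutamine they summed to 2110 to 2810 CPM. In every library PAX8, JAG1 and CCND1 made up most of this sum. Of the 11 genes, 10 had positive fold changes and the median was 1.39. By edgeR with all libraries 0 were called, with 2 higher and 0 lower at an unadjusted p under 0.05. DESeq2 called 1 higher and gave no p for WNT4 and POU3F3. LHX1 was the highest, at 71.8, 4.51 and 4.66 CPM with and 137, 114 and 89.5 CPM without (2.07, SE 1.02, edgeR adjusted p 0.217), and BMP2 the lowest, at -0.12 (SE 0.16). DLL1, like LHX1, was lowest in replicates 2 and 3 with glutamine. The part of such cells in the DLL1 and LFNG values was not tested. With replicate 1 left out, edgeR called 9 of the renal vesicle genes higher and 1 lower, where it called 22.3% of all genes higher and 19% lower. In that fit their median was 2.38, and LHX1 was at 4.63 (edgeR adjusted p 1.93e-07). The lists share genes: PAX8 and LHX1 are also nephron progenitor genes here, JAG1 is in the Notch list, and FGF8 and DKK1 are in the WNT and FGF list. The 13 nephron progenitor genes summed to 984 to 1666 CPM with and 1546 to 2071 CPM without. By edgeR with all libraries 0 of them were called, with 3 higher and 5 lower at an unadjusted p under 0.05, while DESeq2 called 1 higher and 3 lower. Their median was 0.37. Without replicate 1 with glutamine edgeR called all 13, 8 higher and 5 lower, with a median of 0.66, where it called 41.3% of all genes. HOXD11 was the highest at 4.67 (SE 0.74, edgeR adjusted p 0.0679), and was called (edgeR adjusted p 2.27e-06) without replicate 1, where only 1 count was left in the group with glutamine. SIX2 had the opposite sign, at -1.48 (SE 0.53, edgeR adjusted p 0.126). It was among the 5 called lower without replicate 1, at -1.92 (edgeR adjusted p 4.77e-06).

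The 11 neural genes summed to 30.1 to 70.7 CPM with glutamine and 57.7 to 82.8 CPM without, most of it DCX. Of the 8 kept, 0 were called by edgeR with all libraries, 1 was higher and 4 lower at an unadjusted p under 0.05, and DESeq2 called 1 higher and 2 lower. Leaving out replicate 1 with glutamine, edgeR called 2 of the 8 higher and 4 lower. The proneural gene NEUROG2 was at 0.160, 0.448 and 0.916 CPM with glutamine and at 0.116, 0.0383 and 0 CPM without, and NEUROD1 had at most 7 counts in any library. ELAVL4, a neuronal RNA-binding protein, was at 0.850, 4.80 and 4.49 CPM with and 0.791, 1.08 and 0.866 CPM without (-1.89, SE 0.60, edgeR adjusted p 0.103), highest, like HES7, in replicates 2 and 3 with glutamine, and was at -2.35 (edgeR adjusted p 4.05e-06) without replicate 1. TUBB3 had the highest log2 fold change of those above 1 CPM, at 1.01 (SE 0.22, edgeR adjusted p 0.0706), and 1.25 (edgeR adjusted p 0.000483) without replicate 1. The part of neuronal cells in the DLL3 values was not tested. Of 6 lateral plate markers, HAND1 had at most 3 counts, NKX2-5 at most 10 and FOXF1 5 to 17. TBX5 had 9, 0 and 0 counts with glutamine and 17, 10 and 10 without, and HAND2 had 28, 1 and 3 against 29, 7 and 21. KDR, also an endothelial receptor, was at -2.01 (SE 0.42, edgeR adjusted p 0.0695), and HAND2 at 0.79 (SE 0.87, edgeR adjusted p 0.559). Without replicate 1 with glutamine KDR was at -2.38 (edgeR adjusted p 1.04e-06) and HAND2 at 3.13 (edgeR adjusted p 0.00918). Of 5 endoderm markers, FOXA2 and AFP had at most 4 counts and FOXA1 at most 14. SOX17 had 23, 62 and 58 counts with glutamine and 21, 15 and 12 without (-1.60, SE 0.45, edgeR adjusted p 0.0857), and GATA4 had 15, 4 and 6 against 27, 17 and 21 (1.33, SE 0.42, edgeR adjusted p 0.102). Without replicate 1 with glutamine SOX17 was at -1.94 (edgeR adjusted p 0.000354) and GATA4 at 2.04 (edgeR adjusted p 0.00358).

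The 5 protein-coding genes whose profile over the 6 libraries was nearest to that of TBX6, of 13878 with a mean of at least 50 counts, were ATP6V1FNB, A1BG, C5AR1, XDH and MYO1F. Likeness was the root mean square difference of log2 CPM after each gene was centred on its mean, and it ran from 0.0452 for ATP6V1FNB to 0.0775 for MYO1F. Their log2 fold changes, from -0.40 to -0.26, lie near that of TBX6 because they were chosen on these 6 libraries.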

How the data were processed

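Raw counts per Ensembl gene were deposited by the authors for 6 libraries, and the table of normalized values was not used here. Per the submitters' processing notes, the tools were cutadapt, Trim Galore, FastQC, STAR 2.5.2b and DESeq2, with genome build GRCh38. The counting program, the annotation release and the strand setting are not given in the sources used here. A column's sample was read from the sample descriptions, and groups and replicate numbers through the titles.

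The main test was edgeR's quasi-likelihood test (version 4.0.16, in R 4.3.3), run in its non-legacy and non-robust form after TMM scaling and filterByExpr at its minimum of 10 counts. This kept 22613 of 60107 genes with 99.947% of the counts, and the Benjamini-Hochberg adjustment ran over all of them, with a threshold of 0.05. The SE is the absolute log2 fold change divided by the square root of F. No pair of libraries held identical counts. Symbols, positions and exon lengths came from GENCODE 29 on GRCh38, which matched 56531 gene IDs.

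The alternatives were other scalings and filters, DESeq2 1.42.0, limma-voom (limma 3.58.1), the legacy and robust settings, a replicate block and leaving out each library. The members, the lists, the tests and the rule for naming genes were chosen with earlier results of these data known. The rule names all members, the genes of highest and lowest fold change with at least 1 CPM in each other list, and the 5 genes most like TBX6. A gene that this rule names is not reported here. RBPJ, HES1, HES6, TBXT, WT1, SIX2, NEUROG2, ZFP42, SOX17, GATA4 and HAND2 and the marker genes given by counts were named after their values were seen. So were PAX8 and CCND1, for their part in a sum, and HES5, WNT4 and POU3F3, for a missing DESeq2 value. No list test was run.

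Simulated counts had 200 genes changed, all drawn from genes with a mean above 2 CPM. No simulated library stood apart as replicate 1 with glutamine does. MSGN1, MESP1, MESP2 and RIPPLY2 lie under that level in every library, as does the mean of RIPPLY1 over all libraries, so the shares recovered do not apply to them. The fit of all 6 libraries recovered 72% of changes of 1 and 96% of changes of 2 on the log2 scale. This was over 22218 genes, with 14 false calls. Without replicate 1 with glutamine, over 22410 genes, all changed genes were recovered with 23 false calls. Both numbers of false calls are more than the threshold allows for.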

Additional observations from a re-analysis of the deposited data

How the results depend on the processing

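No value of the 10 genes changed sign under the 16 alternatives, where a gene could be fitted. Of 145 values, 9 became called: 2 under DESeq2 (MSGN1 and RIPPLY1) and 7 without replicate 1 with glutamine (MSGN1, HES7, DLL1, DLL3, LFNG, MESP2 and RIPPLY1). The other 136 were counted as keeping their side of the threshold. They include RIPPLY2 under DESeq2, which had no adjusted p. With 1 library left out, from 0 to 7 of the segmentation genes and from 0 to 9573 of all genes were called. Both highest values came without replicate 1 with glutamine, and 17 of all genes were called without replicate 1 of the group without glutamine. The log2 fold change of HES7 then ran from -2.17 to -1.26, that of DLL1 from 0.84 to 1.67 and that of MSGN1 from -2.68 to -1.79. RIPPLY2 was fitted only with no filter and by DESeq2, at -1.46 and -1.52.

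The count of all genes called was 1 with all libraries. It was 0 under upper quartile scaling, library size only, limma-voom, edgeR's legacy setting and the replicate block, 2 with no filter and 3041 under DESeq2, which also called 2 segmentation genes. The cause was not tested. The largest shift that a scaling gave the median of all genes was -0.0445. The labels do not say whether same-numbered libraries of the groups were matched, and their deviations from group means correlated at -0.02, 0.0001 and 0.03. With the replicate block 0 segmentation genes were called, and HES7 was at -1.41 (edgeR adjusted p 0.26). Depth limits MSGN1, MESP1, MESP2 and RIPPLY2, with at most 46 counts in a library.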
